A study of Solanum lycopersicum with 36 samples.

Results

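A group of 230 tomato genes was chosen for transcript levels that were lower in grafted seedlings (GSs) than in nongrafted seedlings (NGSs) before salt, later decreased in the NGSs and stayed nearly level in the GSs. On a scale of log2(FPKM + 1), where FPKM counts the fragments of a gene per length of the gene and per depth of the library, the mean of the GSs was at least 1 below that of the NGSs at 0 h, the NGSs were at least 1 below their own 0 h mean at 24, 48 and 96 h, and the GSs were within 0.75 of their own 0 h mean at these times. Of 32246 genes in the table, 20090 reached an FPKM of 1 in at least 3 libraries, 1121 of these had the deficit at 0 h, 602 of those also had the later decrease in the NGSs, and 230 (1.14% of the 20090) met all conditions. What the rule used is given below as a description. Tests are given for 6 and 12 h of salt, which it did not use.

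The study asked how a salt-tolerant rootstock changes the salt response of the leaves of a sensitive scion. The GSs carried the salt-sensitive tomato Zhongza 9 on the salt-tolerant rootstock QZ-006, and the NGSs were Zhongza 9 on its own roots. Leaf RNA was sequenced after 0, 6, 12, 24, 48 and 96 h of 175 mM NaCl in hydroponic culture, with 3 libraries in each of the 12 groups (36 in all). No self-grafted seedlings were among the samples analysed here, so grafting and the rootstock cannot be told apart, and without unstressed seedlings after 0 h salt and elapsed time cannot be told apart. The methods of the study give a single morning hour for sampling and do not say how the times of salt fell on it.

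Leaves of tomato make defensive and volatile compounds by side branches of metabolism. Phenylalanine ammonia-lyase opens the branch to phenylpropanoids such as lignin and flavonoids, and terpene synthases make volatile terpenes in the glandular hairs of the leaf surface. Chloroplasts keep a small genome of their own, which encodes subunits of the photosystems, of the NDH complex and of the plastid ribosome.

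The depth of a library, as reads on genes recovered from its FPKM, was 15229640 to 26661418. The NGS libraries of 0 h were the 3 shallowest. The GSs had 20795796 to 25070006 reads at 0 h, against 15229640 to 18403172 reads in the NGSs. At 0 h, which the rule used, a member had a median of 43.2 reads per GS library and of 152 reads per NGS library. When the FPKM values were scaled to library totals, the rule found 221 genes, 207 of them among the 230. With a pseudocount of 0.1 in place of 1, which gives weak genes more room to vary, it found 171 genes, and 95 of the 230 were among them. Leaf marker genes were present, with 45 of 46 listed markers passing the filter, and none of the 4 fruit markers and 1 root marker passed it. Of 3 flower markers, 2 passed it, of which TDR6 ranged from 10.9 to 51.9 FPKM.

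The conditions of the rule set the NGSs at 0 h above the GSs at 0 h and above the NGSs from 24 h on, and the levels of the libraries are given as a description. The median of the 230 genes was 1.52, 1.42 and 1.164 in the GS libraries at 0 h, against 3.01, 3.27 and 3.10 in the NGS libraries at 0 h, on the log2 scale. In the 33 libraries other than those of the NGSs at 0 h, it lay between 0.54 and 1.89. For all tested genes it was 3.05 to 3.09 in GS libraries, against 3.10 to 3.14 in NGS libraries of 0 h.

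**Figure D1:**
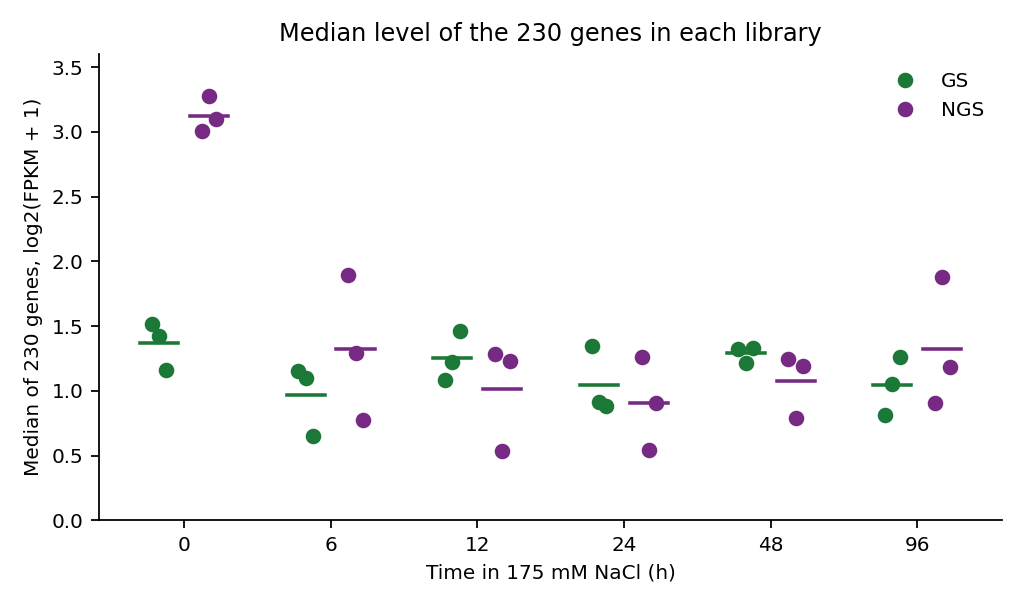
Median of log2(FPKM + 1) over the 230 genes in each library, against hours in 175 mM NaCl, with points for libraries and bars for the mean of 3 libraries, GSs left of NGSs. The 3 NGS libraries of 0 h lie at 3.01 to 3.27, above the other 33 libraries, of which the highest is at 1.89.

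Every NGS library of 0 h was above every GS library of 0 h for 199 of the 230 genes (86.5%, against 15.3% of all tested genes), and above all 33 other libraries for 111, against 4.44% of all tested genes. The rule used these values of 0 h, and nothing is read from the counts. In the fit with limma, a gene was called when the false discovery rate (FDR) was under 0.05 and the log2 difference was 1 or more in size. The comparison at 0 h, which the rule itself used, called 195 of the genes lower in the GSs, where 5.07% of all tested genes were called and 3.56% called lower, which is a description too. The difference at 0 h ran from -4.60 to -1.0002 with a median of -1.39, where the median of all tested genes was -0.02. Just inside the limit were LOC101258570, LOC101258969 and LOC101246949, at -1.0002, -1.0007 and -1.0008. Just outside it lay LOC101268036 (-0.991), a gene defined from the reads (-0.990) and LOC101255616 (-0.988).

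The median SD of a member between replicates (log2, n = 3) was 0.34 in the GSs at 0 h, against 0.26 over all tested genes there. In the NGSs at 0 h it was 0.45 for a member and 0.22 over all tested genes. Members and tested genes differed in level as well, and the part of level in the spread was not tested. The highest NGS library of 0 h was replicate 1 for 52 genes, replicate 2 for 97 and replicate 3 for 81, and 21 genes had an SD over 1 there. Each of the 3 NGS libraries was thus the highest for a sizeable number of genes. Leaving out any 1 of the 24 libraries of 0, 24, 48 and 96 h moved the number of genes found to between 196 and 296.

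At 6 and 12 h, which the rule left free, most of the genes were already below their 0 h level in the NGSs. In the GSs, 153 were within 0.75 of their 0 h mean at 6 h, with 32 at least 1 lower and 13 at least 1 higher. The NGSs were lower than at 0 h by at least 1 in 188 of the 230 genes at 6 h and in 198 at 12 h. In the GSs at 12 h, 176 were within 0.75, with 19 lower and 19 higher by at least 1. These comparisons share the 0 h libraries that chose the genes and carry no test.

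The members were shorter and more weakly transcribed at the median than the tested genes. The median exon length was 1214 bases against 1639 for all tested genes, and the median FPKM over the 36 libraries was 2.21 against 8.69. In the NGSs at 0 h the mean FPKM of a member ran from 1.65 to 1137 with a median of 7.92, against a median of 1.61 in the GSs at 0 h. RefSeq (assembly SLM_r2.1) annotated 183 of the 230 as protein coding, of 17566 tested, and 9 as pseudogenes, of 186 tested. A further 12 were long noncoding RNAs, 3 small nucleolar RNAs, 8 genes defined from the reads of the study and 10 genes outside the RefSeq table. In 45 of the 230 the mean FPKM stayed under 1 in all 11 groups other than the NGSs at 0 h, among them 22 protein-coding genes, 7 pseudogenes and 6 genes defined from the reads. In the gene order of that assembly 10 pairs of members lay next to each other, for example ASR3 with LOC101247814 and the plastid trnT-GGU with psbD. How many such pairs an equal number of other tested genes would hold was not worked out, and nothing is read from the 10. None of the 20 genes that the study names by identifier was a member.

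Gene lists built from RefSeq symbols placed few of the members. Of 46 tested genes of defence and wounding 3 were members (PAL3, p69d and LOC101259064), of 64 of photosynthesis 3 (ndhE, petA and psbD), of 34 of protein synthesis 2 (rps15 and rpl20), of 34 of the cell wall 1 (XET4), of 29 of transport 1 (PHO1-5) and of 17 of the cell cycle 1 (CYCD3C2). No member was found among 116 hormone genes, 17 heat shock and chaperone genes and 17 clock and light genes. Most members carry a LOC number alone, and 26 of the 230 have a symbol or a synonym.

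Among the genes of defence, PAL3, which encodes a phenylalanine ammonia-lyase, was one of the 5 highest members. It had 664, 106 and 125 FPKM in the GSs, against 281, 598 and 549 FPKM in the NGSs at 0 h, so 1 GS library exceeded all 3 NGS libraries. At 12 h, PAL3 had 211, 202 and 360.4 FPKM in the GSs, against 201, 67.5 and 83.2 FPKM in the NGSs, a difference of 1.25 ± 0.63 (SE, log2) that was not called (FDR = 0.308, limma). LOC101259064, listed with the synonym PPO, encodes a polyphenol oxidase, an enzyme that turns phenolics into reactive quinones after wounding. Its values at 0 h were 1.57, 1.78 and 1.35 FPKM in the GSs, against 32.8, 12.3 and 7.88 FPKM in the NGSs. Here the groups did not overlap, but the NGS libraries spread over a wide range. The groups did not overlap in p69d either, a subtilisin-like protease of the family that tomato makes after infection, with 4.56, 2.07 and 1.39 FPKM in the GSs, against 4.94, 8.07 and 7.44 FPKM in the NGSs. Peroxidases, which oxidise phenolics in the cell wall among other tasks, were represented by 2 weakly transcribed genes. LOC101250523 (synonym TPX1) had 0.461, 0.104 and 0.0891 FPKM in the GSs, against 7.51, 2 and 2.11 FPKM in the NGSs, and TPX2 had 0.293, 0.624 and 0.133 FPKM in the GSs, against 2.2, 1.5 and 1.79 FPKM in the NGSs.

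Terpenoid metabolism was represented by 3 members. TPS12, which encodes the synthase of caryophyllene and humulene in glandular hairs, had 1.86, 2.5 and 1.98 FPKM in the GSs, against 15.8, 16.2 and 19.9 FPKM in the NGSs at 0 h. From 6 h on, no library of either type of seedling exceeded 4.96 FPKM. CPT7, a member of the cis-prenyltransferase family that builds isoprenoid chains, had 4.75, 4.43 and 3.35 FPKM in the GSs, against 19.7, 6.05 and 17.6 FPKM in the NGSs. LOC101251254, listed as EOT1, a transcription factor named for the expression of terpenoids, had 0.611, 0.624 and 0.3 FPKM in the GSs, against 3.36, 3.37 and 2.9 FPKM in the NGSs. In all 3 genes the groups did not overlap. A wider list of terpene synthase, cis-prenyltransferase and EOT symbols was drawn up after these values had been seen. It held 12 tested genes outside the 230, of which 7 were at least 1 lower in the GSs at 0 h by the group means, and in 4 of the 12 every NGS library was above every GS library. Of all tested genes, 5.58% were lower by as much at 0 h, and in 15.3% every NGS library was above every GS library. The lowest of the 12 were SSTLE1 (synonym TPS9, -1.75), CPT1 (-1.65), which makes neryl diphosphate, and PHS1 (-1.58), a phellandrene synthase. In these 3 genes replicate 2 of the NGSs lay within the range of the GSs. CPT1 had 4.87, 3.08 and 0.789 FPKM in the GSs, against 21.7, 2.02 and 18.1 FPKM in the NGSs, and its difference was -2.57 without that library. The difference also grew in size without it in SSTLE1, PHS1, TPS37, MTS1 and TPS17. It shrank to -1.02 in TPS7, -0.88 in EOT2 and -0.53 in CPT3. TPS1 ran the other way at 1.19, and CPT4 and TPS24 were at 0.22 and 0.12. A list chosen in this way carries no test, and nothing is read from it about terpenoid genes as a group. In bulk leaf RNA, fewer cells of a type and less RNA per cell cannot be told apart.

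The other members with a symbol belonged to several families and are given one by one. YABBY5a, a transcription factor of the family that sets the sides of the leaf blade, had 18, 15.6 and 18.4 FPKM in the GSs, against 40, 34.2 and 37.1 FPKM in the NGSs at 0 h. It came to 9.6, 6.18 and 9.94 FPKM in the GSs, against 23.9, 8.31 and 5.85 FPKM in the NGSs at 6 h. By then the GSs and NGSs overlapped. XET4, a xyloglucan endotransglycosylase that remodels the cell wall, had 2.67, 3.02 and 1.71 FPKM in the GSs, against 7.45, 9.15 and 9.57 FPKM in the NGSs. CYCD3C2, a D-type cyclin that drives entry into the cell cycle, had 1.93, 1.65 and 1.04 FPKM in the GSs, against 7.04, 1.69 and 6.62 FPKM in the NGSs, with 1 NGS library inside the range of the GSs. OFP10, of the OVATE family of growth regulators, stayed under 1 FPKM in all 3 GS libraries at 0 h and had 2.35, 2.58 and 1.27 FPKM in the NGSs. PHO1-5, of the family of phosphate exporters, had 6.09, 4.13 and 7.46 FPKM in the GSs, against 12, 25.9 and 30.2 FPKM in the NGSs. For XET4, OFP10 and PHO1-5 the values at 0 h did not overlap. XOPG1 had 7.12, 5.6 and 3.33 FPKM in the GSs, against 13.9, 12.9 and 11 FPKM in the NGSs, again without overlap.

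**Figure D2:**
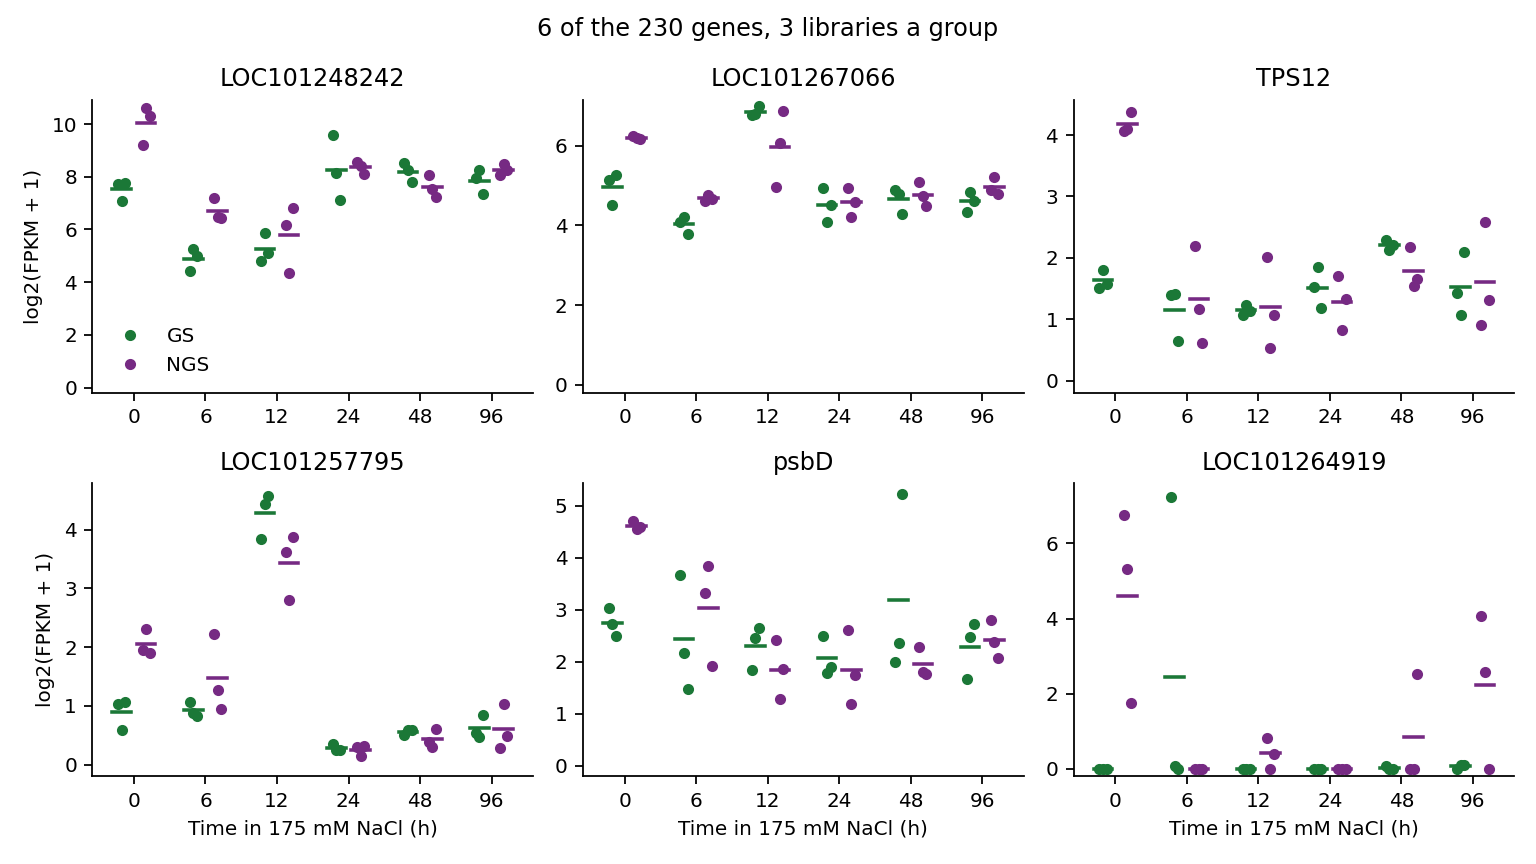
Level of 6 of the 230 genes as log2(FPKM + 1) against hours in 175 mM NaCl, with points for libraries and bars for the mean of 3 libraries, GSs left of NGSs. In LOC101248242, LOC101267066, TPS12, LOC101257795 and psbD the NGSs lie above the GSs at 0 h in every library, and LOC101264919 reads near 0 except in a few libraries.

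The members included 9 of the 117 tested genes of the plastid genome and 1 of the 24 of the mitochondrial genome. The D2 subunit of photosystem II, encoded by psbD, had 7.2, 5.62 and 4.62 FPKM in the GSs, against 25.3, 22.4 and 23.2 FPKM in the NGSs at 0 h. The gene for cytochrome f, petA, had 4.9, 2.27 and 1.48 FPKM in the GSs, against 8.79, 10.1 and 10.2 FPKM in the NGSs. In both genes the groups did not overlap, nor did they in the ribosomal protein gene rpl20, with 5.77, 2.13 and 4.23 FPKM in the GSs, against 7.56, 11.7 and 13.9 FPKM in the NGSs. The values of ndhE, a gene of the NDH complex, overlapped, with 9.41, 4.04 and 2.93 FPKM in the GSs, against 12.4, 14.8 and 8.79 FPKM in the NGSs, and the threonine tRNA gene trnT-GGU had 3.45, 1.14 and 1.47 FPKM in the GSs, against 8.65, 11.9 and 6.95 FPKM in the NGSs. Values of rps15, also of the plastid ribosome, and of infA, a plastid translation initiation factor, overlapped between the GSs and NGSs at 0 h. In the mitochondrial atp1, which encodes the alpha subunit of ATP synthase, the values were 2.52, 2.76 and 3.09 FPKM in the GSs, against 5.19, 13.7 and 6.52 FPKM in the NGSs.

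Reads on the plastid and on the mitochondrial genes took a larger share of the NGS libraries at 0 h, but gene by gene only the plastid genes were lower in the GSs at the median. Of all tested genes, 5.58% were lower by at least 1 in the GSs at 0 h. Of the 117 plastid genes, 53 were, and the median difference of the 117 was -0.86. In 41 of these 53, the GSs were at least 0.75 below their 0 h mean at 24, 48 or 96 h, which kept them out of the 230. The share of reads on plastid genes was 0.0755 to 0.0976% in the GSs, against 0.205 to 0.216% in the NGSs at 0 h. In the later libraries it reached at most 0.158%, except 0.294% in replicate 3 of the GSs at 48 h, where psbD was at 36.6 FPKM. The mitochondrial share was 0.0131 to 0.0250% in the GSs, against 0.0838 to 0.154% in the NGSs at 0 h. Of the 24 tested mitochondrial genes, however, 4 were lower by at least 1 in the GSs at 0 h, and the median difference of the 24 was 0.24. Without the 10 organelle genes the median difference of the other 220 at 0 h was the same, -1.39. The part of organelle RNA in the levels of the other members was not tested.

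**Figure D3:**
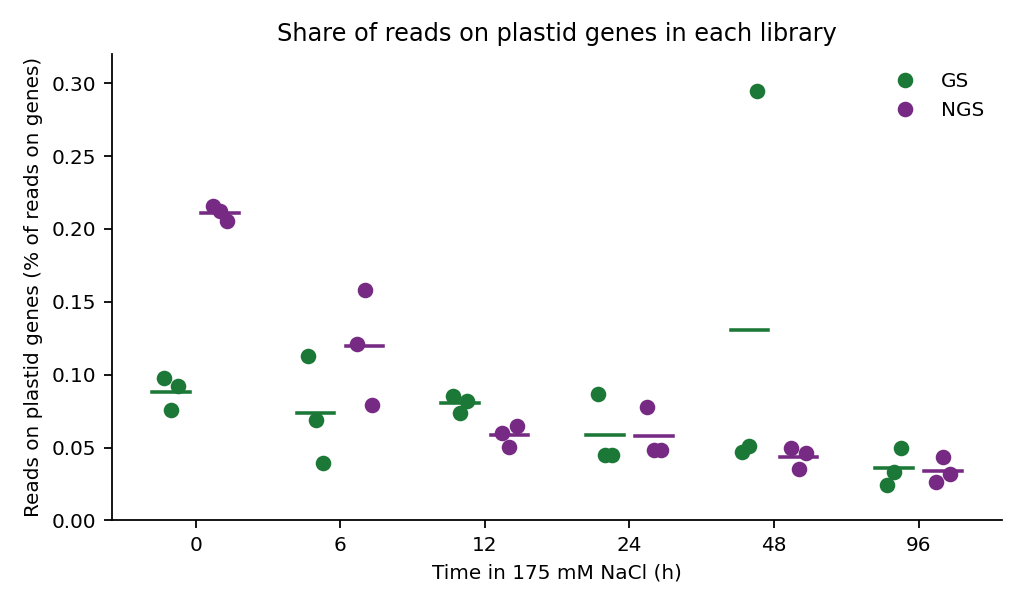
Reads on plastid genes as a percentage of all reads on genes, against hours in 175 mM NaCl, with points for libraries and bars for the mean of 3 libraries, GSs left of NGSs. At 0 h the GSs lie at 0.0755 to 0.0976% and the NGSs at 0.205 to 0.216%, and replicate 3 of the GSs at 48 h is highest at 0.294%.

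The lowest differences at 0 h belonged to genes that were off in most libraries. LOC101264919 was listed at 0 in all 3 GS libraries, against 106, 38.7 and 2.36 FPKM in the NGSs at 0 h. It was also high in 1 of the 3 GS libraries of 6 h, with 150.0, 0.0479 and 0 FPKM. LOC101261997 had 0.801, 0.102 and 0.0655 FPKM in the GSs, against 88.7, 36.1 and 3.42 FPKM in the NGSs at 0 h, and 0, 0.536 and 46.2 FPKM in the GSs at 12 h. The values of such genes differed widely between replicates. TPP3 had 0, 0 and 0.774 FPKM in the GSs, against 94.6, 0.322 and 35.2 FPKM in the NGSs, and LOC543570 had 0.0652, 0.018 and 0.162 FPKM in the GSs, against 25.5, 27.8 and 3.04 FPKM in the NGSs. A steadier gene was 1 of the 8 defined from the reads, with a difference of -3.06 and 0.21, 0.958 and 0.781 FPKM in the GSs, against 14.2, 17.5 and 7.67 FPKM in the NGSs, and at most 1.48 FPKM in every later library. The plastid RNA gene LyesC2r007 had 0.194, 0.425 and 0.564 FPKM in the GSs, against 11.9, 6.63 and 6.75 FPKM in the NGSs.

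The highest levels at 0 h were those of LOC101248242, with 208, 135 and 217 FPKM in the GSs, against 587, 1561 and 1263 FPKM in the NGSs. LOC101254072 followed, with 313, 489 and 385 FPKM in the GSs, against 853, 1081 and 993 FPKM in the NGSs. Next to PAL3, LOC101254426 had 260.0, 129 and 221 FPKM in the GSs, against 355, 408 and 448 FPKM in the NGSs, and LOC101244864 had 173, 103 and 112 FPKM in the GSs, against 327, 395 and 448 FPKM in the NGSs. In these 4 genes each NGS library was above each GS library.

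At 6 h of salt (n = 3 libraries a group) the GSs were lower in most of the genes, by less than at 0 h. Of the 230 genes 171 were lower and 59 higher in the GSs, with a median of -0.26, against -0.02 over all tested genes. The limma test called 3 genes lower and none higher in the GSs (1.3% of the 230, FDR under 0.05). Of all tested genes 4.4% were called, 1.99% higher and 2.41% lower. However, 45 of the 230 had a mean FPKM under 1 in all 11 groups other than the NGSs at 0 h. Others, such as LOC101253080, were under it in every group of 6 and 12 h. For these a log2 difference of 1 between 2 such groups was out of reach, so nothing is read from the lower share. LOC101248242 had 20.3, 37 and 30.9 FPKM in the GSs, against 146, 88.7 and 84.9 FPKM in the NGSs, a difference of -1.82 ± 0.51 (SE, FDR = 0.0265). LOC101255100 had 1.41, 1.45 and 2.53 FPKM in the GSs, against 18.4, 7.73 and 5.17 FPKM in the NGSs (-1.88 ± 0.54, FDR = 0.029). The values of both genes fell into separate ranges, and so did those of LOC104645202, with 3.85, 3.69 and 5.26 FPKM in the GSs, against 14, 11 and 8.23 FPKM in the NGSs (-1.18 ± 0.32, FDR = 0.0211). With the replicate numbers as a block, 5 genes were called, the same 3 among them. The share of all tested genes called with the block is not given here. The calls rested on single libraries. No gene was called without replicate 1 of the GSs, without replicate 1 of the NGSs or in a fit of the 6 h libraries alone, none of the 3 was called without replicate 2 of the GSs, and without replicate 1 of the NGSs the median was -0.06.

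At 12 h the sign of the median had turned. The GSs were lower in 64 and higher in 162 genes, with a median of 0.21, against 0.00 over all tested genes. None of the 230 was called by limma, where 0.0448% of all tested genes were (0.0398% higher and 0.00498% lower). The lowest FDR was 0.135, and voom, limma's test for counts, on the recovered reads called none either. LOC101252788 had 35.9, 15.8 and 34.9 FPKM in the GSs, against 8.18, 1.31 and 18.1 FPKM in the NGSs (1.92 ± 0.58, FDR = 0.136). The groups overlapped there, as 1 NGS library exceeded 1 GS library. Without replicate 3 of the NGSs 2 genes were called, LOC101252788 and LOC101267066, and without replicate 2 of the NGSs the median was 0.03. The medians at 24, 48 and 96 h were 0.10, 0.14 and -0.16, as a description.

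**Figure D4:**
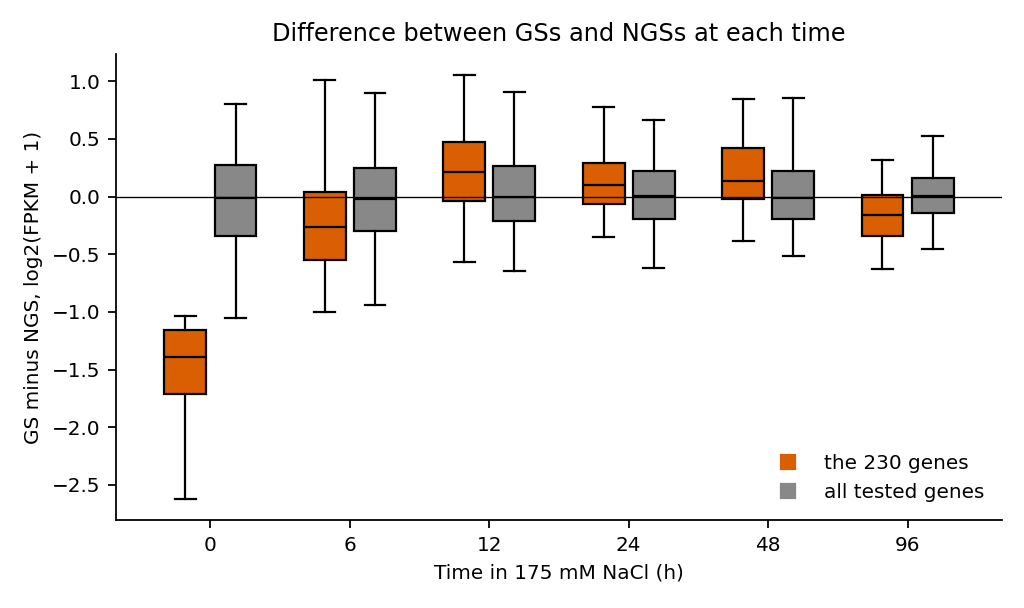
Difference of the group means, GSs minus NGSs, in log2(FPKM + 1) at each time in 175 mM NaCl, for the 230 genes (left) and all 20090 tested genes (right). Boxes show quartiles and median and whiskers the 5th and 95th percentiles. The box of the 230 genes lies below that of all tested genes at 0 h, where the rule chose them (median -1.39), and the medians at the later times are between -0.26 and 0.21.

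Some of the genes changed again between 6 and 12 h of salt (n = 3 libraries a group). In the GSs, 33 of the 230 were called between 12 and 6 h, 25 higher and 8 lower at 12 h (14.3%), where 15.6% of all tested genes were called, 9.08% higher and 6.55% lower. The median change of the 230 in the GSs was 0.26, against -0.02 over all tested genes. LOC101257795 rose to 13.3, 20.7 and 22.8 FPKM at 12 h, against 1.1, 0.837 and 0.778 FPKM at 6 h (3.35 ± 0.26 on the log2 scale, FDR = 3.93e-10, limma). LOC101252788 had 35.9, 15.8 and 34.9 FPKM at 12 h, against 0.226, 0.177 and 0 FPKM at 6 h (4.64 ± 0.58, FDR = 1.27e-06). LOC101267066, LOC101244412 and LOC101255712 rose by 2.83, 2.48 and 2.44, and among genes with a known role the cyclin gene CYCD3C2 rose by 1.64 (FDR = 0.0142). Of 12 alternatives, the call was lost in 4 for LOC101255712, in 3 for CYCD3C2 and in none for the other 4. The FDR without the limit on size was 1 of the 12 and, repeating the main fit, could not lose a call. Each of these 6 genes was higher in every GS library of 12 h than in any of 6 h.

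The 8 genes that fell in the GSs between 6 and 12 h included ASR3, of the family of proteins induced by abscisic acid, stress and ripening. It had 0.117, 0.279 and 0.0677 FPKM at 12 h, against 2.67, 8.58 and 3.38 FPKM at 6 h (-2.22 ± 0.83, FDR = 0.042, limma). LOC101247814, next to it in the RefSeq gene order, had 0.366, 1.67 and 0.593 FPKM at 12 h, against 5.61, 15.3 and 9.37 FPKM at 6 h (-2.53 ± 0.97, FDR = 0.0455). At 0 h the GSs and NGSs overlapped in both genes. ASR3 had 0.917, 3.69 and 0.3 FPKM in the GSs, against 0.265, 20.4 and 20.9 FPKM in the NGSs. LOC101247814 had 1.85, 18.4 and 3.56 FPKM in the GSs, against 1.77, 20.6 and 33.2 FPKM in the NGSs. Reads of neighbouring genes that overlap cannot be told apart where strand was not counted, and the strand setting is not given in the sources used here. LOC101252644, LOC101267111 and the small nucleolar RNA gene LOC112941922 fell by 2.73, 2.51 and 1.18 on the log2 scale. In all 5 genes the 12 h values lay below the 6 h values, except that 1 library of LOC101267111 at 6 h was within the range of 12 h. The call of LOC101267111 was lost in 2 of 12 alternatives. Those of ASR3, LOC101247814 and LOC112941922 were each lost in 8 of 12, with an FDR of up to 0.165, 0.146 and 0.173. For ASR3 and LOC101247814 they were lost without any 1 of the 6 GS libraries compared. Without replicate 3 of the GSs at 12 h, 21 genes were called in place of 33.

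In the NGSs, 7 of the 230 genes were called between 12 and 6 h, 3 higher and 4 lower at 12 h (3.04%), where 4.15% of all tested genes were called, 1.19% higher and 2.96% lower. The median change in the NGSs was -0.13, against -0.02 over all tested genes. Higher were LOC101257795 (1.96), LOC101267066 (1.28) and LOC101267677 (1.03), which were called higher in the GSs too. Lower were LOC101255100, LOC101254072, ndhE and LOC101248483, of which LOC101255100 had 0.75, 0.353 and 0.203 FPKM at 12 h, against 18.4, 7.73 and 5.17 FPKM at 6 h (-2.84 ± 0.54, FDR = 8.24e-04, limma). LOC101254072 had 119, 373 and 89.4 FPKM at 12 h, against 572, 399 and 469.6 FPKM at 6 h (-1.58 ± 0.42, FDR = 0.0163). In both genes each library of 12 h lay below each library of 6 h. Of 12 alternatives, the call was lost in 6 for ndhE, 5 for LOC101248483 and 4 for LOC101254072. It was lost in 3 for LOC101267677, 2 for LOC101267066 and 1 each for LOC101257795 and LOC101255100. The count was 3 without replicate 1 of the NGSs at 6 h, 13 and 2 without replicate 1 and 3 of the NGSs at 12 h, and 0 in a fit of the compared libraries alone. On the scale of library totals 4 were higher and 3 lower. Of all 20090 tested genes, 699 were called higher and 383 lower there, against 240 and 594 on the main scale. The median change of all tested genes was 0.25 there, and that of the 230 was -0.26 relative to it.

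When the change in the GSs was tested against that in the NGSs, 13 of the 230 genes passed (5.65%), where 10.1% of all tested genes did, 6.75% positive and 3.34% negative. In 12 of them the change from 6 to 12 h was more positive in the GSs and in 1, LOC101252644, more negative. The median difference of the changes was 0.46, with 181 genes positive and 49 negative, against 0.02 over all tested genes. The largest was that of LOC101252788, with 3.70 ± 0.82 (FDR = 0.00562, limma), where the GSs changed by 4.64 and the NGSs by 0.94. ndhE was the 1 plastid gene among the 13. Members with a mean FPKM under 1 in all groups compared had little room to pass, so nothing is read from 5.65% against 10.1%. Of 18 alternatives, the call was lost in 9 for LOC101252644 and in 8 for ndhE, against 1 for LOC101252788. Without replicate 1 or 3 of the GSs at 12 h the count was 7 and 6. Without replicate 1 of the NGSs at 6 h it was 5, and in a fit of the compared libraries alone it was 8. With library totals, 978 of the 20090 tested genes were called positive and 1498 negative, against 1357 and 671 on the main scale. Of the 230, 14 were called positive and 1 negative there. The median of all tested genes was -0.25 there, and that of the 230 was 0.58 relative to it.

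**Figure D5:**
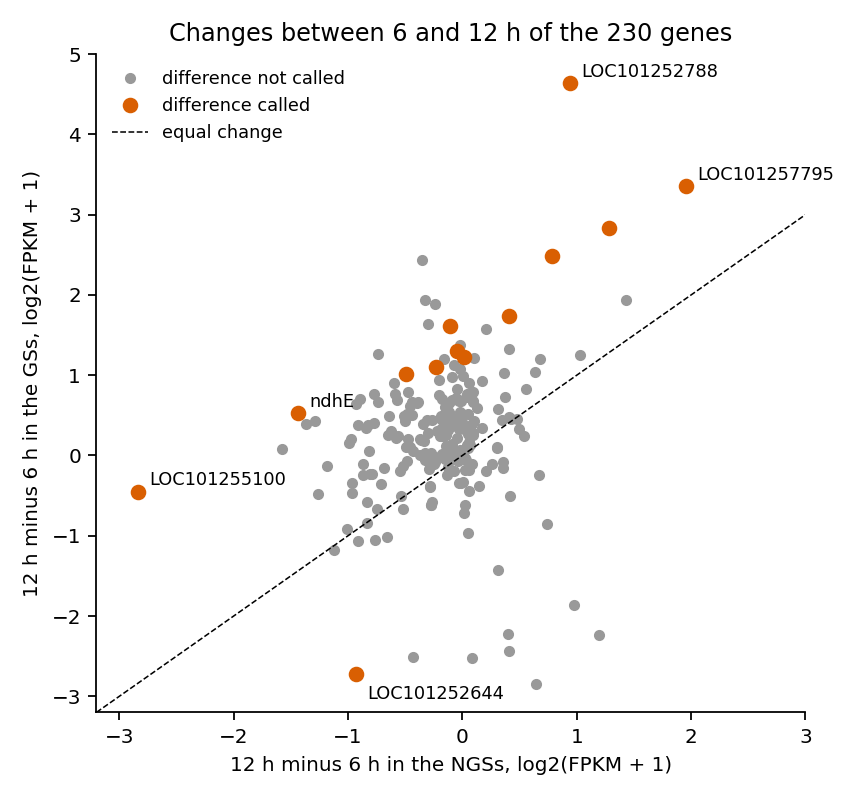
Change of each of the 230 genes between 6 and 12 h in log2(FPKM + 1), in the GSs (vertical) against the NGSs (horizontal), with a dashed line of equal change. The 13 genes whose changes differed under limma are coloured, 12 above the line and LOC101252644 below it.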

How the data were processed

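The authors sequenced leaf RNA with 3 biological replicates a group and filtered the reads. Their processing notes name HISAT2 2.0.5 and featureCounts 1.5.0-p3, and the strand setting is not given in the sources used here. The deposited values carry no named unit and were read as FPKM, which are whole multiples of the value of 1 read in 100% of the genes above 0 (tolerance 0.05), so reads were recovered for depth, voom and library totals. The denominators of the deposited FPKM equal median-of-ratios size factors, so that scaling was not run again.

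The 20090 genes that reached an FPKM of 1 in 3 or more libraries were fitted to 12 group means with limma 3.58.1 in R 4.3.3 (lmFit, eBayes with a trend, 24 residual degrees of freedom) on log2(FPKM + 1), which understates changes of weak genes. Calls needed an FDR (Benjamini and Hochberg, all tested genes) under 0.05 and a log2 difference of 1 or more in size. Tests covered GSs against NGSs at 6 and 12 h, 12 against 6 h in each, and the difference of these changes. In simulated data the fit called 180 of 200 changed genes and 1 unchanged gene. The share it would call among genes as weak and as variable as the members was not tested. Libraries of GSs and NGSs with the same number in their labels deviated together at 6 h (correlations 0.124 to 0.428), so the fit with these numbers as a block is given there. At 12 h they did not throughout (-0.097 to 0.458). The labels state no pairing, and libraries with different numbers correlated at up to 0.644, at 96 h. Whether libraries of the same number share a block was not tested.

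The members, the gene lists and the rule for named genes were chosen with earlier results of these data known. Named are the 5 lowest differences and 5 highest NGS levels at 0 h, up to 5 called genes a direction and test, up to 15 genes with a symbol, and the 3 nearest to the limit on either side. Genes with a symbol beyond these 15, the terpenoid list (with and without replicate 2 of the NGSs at 0 h) and genes that differ between the GSs and NGSs in their change were added after their values were seen. Names come from RefSeq (212 of the 230 matched), built on another assembly than the FPKM, and served for names, gene classes, chromosomes and the order of neighbouring genes, with no coordinates or sequences. Alternatives were another pseudocount, no filter, only the libraries compared, library totals, voom, the FDR alone, the block and leaving out each replicate. The FDR alone repeats the main fit, so a called gene cannot lose its call there. Scripts also used Python 3.11.15, NumPy 2.4.6, pandas 2.3.3 and matplotlib 3.10.9.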

Additional observations from a re-analysis of the deposited data

Results flagged for a closer look

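For 13 of the 230 genes the change from 6 to 12 h differed between the GSs and NGSs when the difference itself was tested in limma (FDR under 0.05, log2 difference of at least 1, n = 3 a group). In LOC101252788 it was 3.70, from 4.64 in the GSs against 0.94 in the NGSs. LOC101255100, which opposed a small change of -0.46 in the GSs to -2.84 in the NGSs, differed by 2.38. In the GSs it was already at 1.41, 1.45 and 2.53 FPKM at 6 h, so a decrease of 2.84 was out of reach there. At 12 h it had 0.558, 1.37 and 1.19 FPKM in the GSs, against 0.75, 0.353 and 0.203 FPKM in the NGSs. The plastid gene ndhE differed by 1.96 (0.53 in the GSs, -1.44 in the NGSs). LOC101244864 had a difference of 1.72, and each of its GS libraries at 12 h was above each at 6 h. LOC101244412 and LOC101267066, which were higher at 12 h in both types of seedling, differed by 1.70 and 1.55, and so did LOC101257795, by 1.40. In LOC101247661, LOC101252681, LOC101253037, LOC101252597 and LOC101252663 the differences were 1.505, 1.35, 1.34, 1.32 and 1.22. LOC101252644 was the 1 gene with a negative difference, -1.79, -2.73 in the GSs against -0.93 in the NGSs. The FDR of these 13 genes ran from 0.00562 to 0.0497, and LOC101244412 and LOC101244864 passed under all 18 alternatives run. The others lost the call in some of them, LOC101255100 in 11, LOC101252663 in 10, LOC101252644 in 9, and ndhE and LOC101252597 in 8 each. It was lost in 5 for LOC101252681 and LOC101257795, in 3 for LOC101267066, and in 1 each for LOC101247661, LOC101252788 and LOC101253037.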

How the results depend on the processing

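All directions of the 41 called values of single genes held in the 573 alternative values computed. Of the 41, 12 kept their call in all their alternatives, and 134 of the 573 values lost it. For each of the 41, 1 alternative, the FDR alone, repeats the main fit and could neither lose the call nor reverse. At 6 h, the 3 calls between GSs and NGSs became 7 with a pseudocount of 0.1, 0 in a fit of the compared libraries alone, 5 with the replicate block (the same 3 among them) and 5 with the FDR alone, and 0 to 7 when 1 library was left out. At 12 h, 0 to 2 genes were called without 1 library and 0 with the replicate block. Between 12 and 6 h, leaving out 1 library gave 21 to 29 calls in the GSs, against 2 to 13 in the NGSs, and the compared libraries alone gave 0 in the NGSs. The difference of the changes gave 5 to 19 without 1 library and 8 with the compared libraries alone. The other counts lay within 1.5 times the main ones. Apart from library totals, these counts stand without the share of all tested genes called in the same fit. No move of a count is read as a trait of the 230. The median difference was -0.44 to -0.06 at 6 h and 0.03 to 0.31 at 12 h without 1 library, an alternative added after the data were seen. The rule found 171 genes with a pseudocount of 0.1 (95 of the 230), 243 without the filter, 221 with library totals and 196 to 296 without 1 library. With library totals the median of all tested genes moved to 0.09 at 6 h and -0.16 at 12 h. The 230 lay at -0.30 and 0.27 relative to it. At 6 h, 556 of all tested genes were then called higher and 373 lower in the GSs, against 399 and 484 on the main scale. Members have few reads in the GSs at 0 h (median 43.2 a library), so levels under 1 FPKM are imprecise.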
